A study of Rattus norvegicus with 8 samples.

Results

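A set of 10 genes that make or compete for the lipid and gas mediators of macrophages were followed across 2 doses of zinc oxide (ZnO). The 10 genes were the cytosolic phospholipase gene Pla2g4a, the cyclooxygenase genes Ptgs1 and Ptgs2, the prostaglandin E synthase gene Ptges, the leukotriene genes Alox5, Alox5ap, Lta4h and Ltc4s, the inducible nitric oxide synthase gene Nos2 and the arginase gene Arg1. They were chosen by name as genes of eicosanoid, nitric oxide and arginine metabolism, with earlier results of these data known. A probe was taken for a gene where its array annotation was a rat RefSeq transcript of that gene. All 10 were on the array, with 12 probes on 23 spots, out of 16581 genes named there. Of the 10, 6 were bright enough to test.

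The cells were NR8383, an established line of rat alveolar macrophages that grows partly attached and partly floating. One group, ZnO 4, received ZnO at 4 µg/mL for 4 h and the other, ZnO 16, received 16 µg/mL for 4 h, with 4 arrays per dose that the study describes as biological replicates. Per the labels, the ZnO 4 cells had been through 20 passages and the ZnO 16 cells through 200 passages. Each dose was hybridised to a slide of its own, scanned on its own, so dose, passage, slide and scan cannot be told apart in any difference given here. Untreated cells were not analysed here, and the only comparison was ZnO 16 minus ZnO 4. Because the arrays read RNA from whole cultures, fewer cells expressing a gene and less of its RNA per cell cannot be told apart.

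Eicosanoids are signalling lipids made from arachidonic acid, which phospholipases cut out of membranes. Cyclooxygenases turn the freed acid into the precursor of prostaglandins and thromboxane, whereas 5-lipoxygenase, helped by the protein encoded by Alox5ap, turns it into leukotriene A4, the shared precursor of leukotriene B4 and the cysteinyl leukotrienes. In macrophages Nos2 and Arg1 draw on the same amino acid, arginine, the former to make nitric oxide and the latter to make ornithine and urea, and their balance is widely used to describe macrophage activation.

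The promoters of Alox5 and Lta4h, the members that passed the test between the doses, are shown first. Each is the 250 bases upstream of the start site in RefSeq's annotation of assembly GRCr8, printed 5′ to 3′ on the gene's own strand. Alox5 lies on the minus strand and its window is chr4:151251127-151251376. Lta4h lies on the plus strand and its window is chr7:29856621-29856870. Capitals mark 3 kinds of motif, each searched on both strands and printed as found. The GC box was searched as GGGCGG. The CCAAT box was searched by the letters of its name. The core of the metal response element was searched as TGCACNC and also, as a variant, as TGCGCNC.
Alox5: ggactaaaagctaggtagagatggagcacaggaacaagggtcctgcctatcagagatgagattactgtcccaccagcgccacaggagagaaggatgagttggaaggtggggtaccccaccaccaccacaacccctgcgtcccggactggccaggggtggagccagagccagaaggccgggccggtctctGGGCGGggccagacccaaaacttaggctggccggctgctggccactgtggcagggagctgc
Lta4h: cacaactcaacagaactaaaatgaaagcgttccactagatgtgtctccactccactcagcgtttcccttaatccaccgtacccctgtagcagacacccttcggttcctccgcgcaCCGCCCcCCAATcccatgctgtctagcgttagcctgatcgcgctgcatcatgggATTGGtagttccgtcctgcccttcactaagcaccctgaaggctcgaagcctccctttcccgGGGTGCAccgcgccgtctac
The Alox5 window held 1 GC box, at positions -61 to -56 from the start site, and neither of the other marked motifs. The Lta4h window held a GC box at -135 to -130, CCAAT boxes at -128 to -124 and -81 to -77, and a metal response element core at -20 to -14, with no overlap among them. Among 33469 RefSeq promoter windows of the same length, 30.5% held a GC box, 34% a CCAAT box and 20.6% a metal response element core, so none of the marks was rare. The windows were 62.8% GC for Alox5 and 57.2% GC for Lta4h, against a median of 51.2% over all windows. Windows were found for 7 of the 10 genes. Of the other 5, Pla2g4a held a metal response element core at -196 to -190, Ptgs2 and Ptges held a GC box each, Ptgs2 and Ltc4s a CCAAT box each, and Ptgs1 none of these marks.

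The scanner software flags each spot that is well above background, and 31.5% to 39.3% of an array's probes carried this flag. The 75th percentile of the processed signal ran from 313 to 516 on the ZnO 4 arrays and from 151 to 381 on the ZnO 16 arrays. Levels are given as log2 processed signal minus the 75th percentile of that array, so 0 is a signal at that percentile. They compare a probe between arrays and not a probe with another probe. Of 14 macrophage markers on the array, 12 were well above background on all 8 arrays, the exceptions being Adgre1 and Marco, which were so on none. No lung epithelial marker (of 8), no mast cell marker (of 5) and no T or B cell marker (of 6) was well above background on all 8 arrays, whereas the fibroblast marker Dcn, the endothelial markers Pecam1 and Cdh5 and the neutrophil marker Camp were. The summed signal of the endothelial markers Pecam1, Cdh5 and Kdr, relative to the 75th percentile, was 1.27 to 1.48 at ZnO 4 and 0.588 to 0.773 at ZnO 16, that of the 5 neutrophil markers was 0.674 to 0.868 and 0.340 to 0.595, and that of the 6 T and B cell markers was 0.221 to 0.252 and 0.0937 to 0.178. The sums of the macrophage markers (348 to 411 and 359 to 468) and fibroblast markers (0.280 to 0.513 and 0.237 to 0.325) overlapped between the doses. So did those of the lung epithelial and mast cell markers. On no array were 3 of the 5 neutrophil, 4 of the 6 T and B cell and 1 of the 3 endothelial markers well above background. Sums over such markers are in part background signal. The part of the marker shifts in the results was not tested.

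Alox5 was higher and Lta4h lower at ZnO 16, and the other 4 tested members, Pla2g4a, Ptgs1, Alox5ap and Arg1, did not pass the test (limma over all genes, Benjamini-Hochberg adjusted p under 0.05). Across all 13460 genes and unnamed transcripts tested, 41.7% were called, 19.8% higher and 21.9% lower, so 2 called of 6 tested members is a share near the background. The split over all genes, 2669 higher and 2943 lower, moved with the scaling, to 3405 and 1980 with each array's median in place of its 75th percentile, 229 and 4417 without scaling and 224 and 5084 when scaled on spike-ins. The doses did not overlap for these same 2 members, as they did not for 39.9% of all genes. The median difference was 0.15 over the tested members and 0.00 over all genes. The difference of Lta4h was exceeded in size by 46.6% of genes and that of Alox5 by 55.8%, against a median size of 0.47. The 8 spike-in probes, which measure RNA added in the laboratory, themselves differed between the doses by -0.68 to 1.62 under the same scaling. Most rose, by 1.07 to 1.62, and the others differed by -0.21 and -0.68. The whole span contains every member's difference, but no spike-in lay between -0.21 and 1.07. Scaling on spike-ins averaged over probes that moved in opposite directions.

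**Figure D1:**
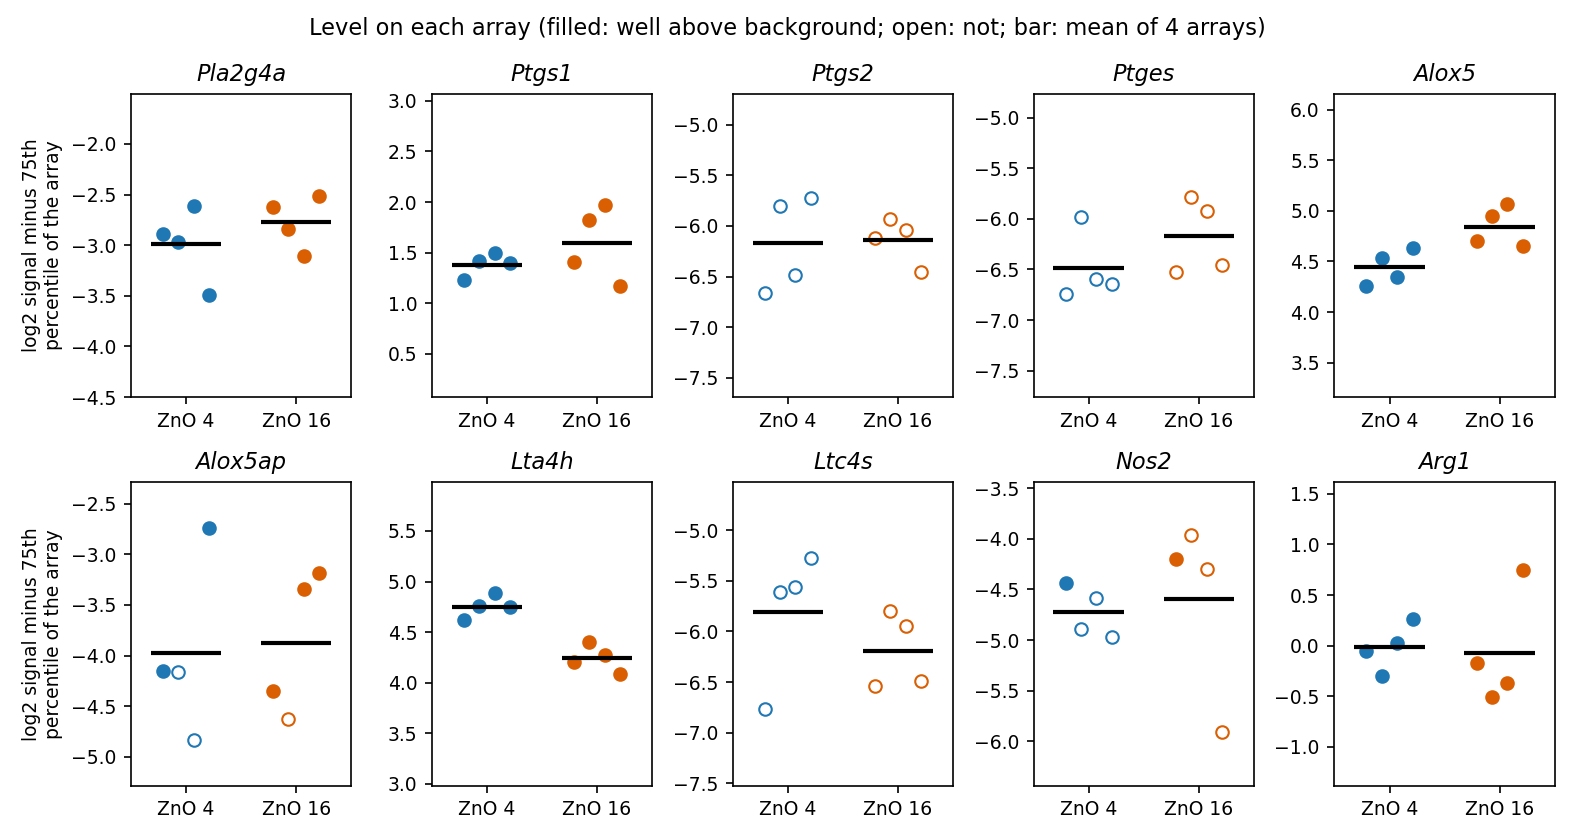
Level of each of the 10 genes (log2 processed signal minus the array's 75th percentile) on the 4 arrays of each dose, with filled points well above background, open points not, and bars for the mean of 4 arrays. Each panel has its own range of the same height. The doses are apart for Alox5 (4.26 to 4.63 against 4.65 to 5.06) and Lta4h (4.62 to 4.88 against 4.08 to 4.40), and every point is open for Ptgs2, Ptges and Ltc4s.

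Pla2g4a, whose enzyme frees arachidonic acid when calcium rises, was dim but well above background on all 8 arrays, with processed signals of 38.1 to 78.5 at ZnO 4 and 21.0 to 66.8 at ZnO 16. Its levels were -2.89, -2.97, -2.61 and -3.49 on ZnO 4 replicates 1 to 4 and -2.62, -2.84, -3.10 and -2.51 on ZnO 16 replicates 1 to 4. The lowest array of all was ZnO 4 replicate 4 and the highest ZnO 16 replicate 4, with the rest of both doses mixed between them. The means were -2.99 ± 0.37 (SD, n = 4) and -2.77 ± 0.26 (SD, n = 4). The fitted difference was 0.22 (SE 0.24, 95% interval -0.31 to 0.75, adjusted p = 0.488). That interval holds 0, so neither a rise nor a fall was shown at this precision.

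Of the cyclooxygenases, Ptgs1, the form most cells make constantly, was well above background throughout. Ptgs2, the form induced by inflammatory stimuli, carried that flag on none of the 8 arrays. Ptgs1 levels were 1.23, 1.41, 1.49 and 1.39 at ZnO 4 and 1.40, 1.82, 1.97 and 1.17 at ZnO 16. The ZnO 4 arrays lay close together, while ZnO 16 replicates 2 and 3 lay above all of them and replicate 4 below all of them. The mean was 1.38 ± 0.11 (SD, n = 4) at ZnO 4 and 1.59 ± 0.37 (SD, n = 4) at ZnO 16, and the fitted difference of 0.21 did not pass (SE 0.18, 95% interval -0.18 to 0.60, adjusted p = 0.358). The 2 spots of this probe differed by 0.022 to 0.168 within an array. A second Ptgs1 probe was well above background on 1 of the 8 arrays and was not tested.

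Ptgs2 had processed signals of 5.10 to 8.11 at ZnO 4 and 2.47 to 5.37 at ZnO 16. Only 1 of these 8 values, at ZnO 16, exceeded the 95th percentile of the negative control spots on its own array. Its single spot on ZnO 4 replicate 4 lay in an area of low signal that covered 3.99% of that array. Ptges, whose enzyme makes prostaglandin E2 downstream of Ptgs2, had signals of 4.29 to 4.95 and 2.74 to 4.35, none above that percentile. For comparison, the lowest signal that was well above background ran from 11.2 to 22.6 over the arrays, so no difference between the doses could be measured for either gene.

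Alox5, which encodes 5-lipoxygenase, the first enzyme of leukotriene synthesis, was among the bright members, with processed signals of 7249 to 10592 at ZnO 4 and 4648 to 9740 at ZnO 16. After scaling, its levels were 4.26, 4.54, 4.35 and 4.63 at ZnO 4 and 4.70, 4.95, 5.06 and 4.65 at ZnO 16. Every ZnO 16 array was above every ZnO 4 array, although ZnO 16 replicate 4 and ZnO 4 replicate 4 were nearly level. The means were 4.44 ± 0.17 (SD, n = 4) and 4.84 ± 0.20 (SD, n = 4). The fitted difference was 0.40 (SE 0.14, 95% interval 0.09 to 0.71), a 1.32-fold rise with an interval of 1.07-fold to 1.63-fold, and it passed narrowly (adjusted p = 0.0390). The 2 spots of the probe agreed to between 0.0013 and 0.18 within an array.

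The Alox5 rise depended on which arrays were included and on the processing. At the same value of 0.40, its adjusted p was 0.108 with no filter on dim probes, 0.0620 with no intensity trend and 0.0537 with the replicate number as a block. It stayed positive when each array was left out, at 0.33 to 0.46, but the adjusted p rose to 0.114 without ZnO 4 replicate 1, 0.0598 without ZnO 4 replicate 2, 0.0980 without ZnO 4 replicate 3, 0.0807 without ZnO 16 replicate 2 and 0.105 without ZnO 16 replicate 3. The direction also rested on scaling the arrays, since the difference was -0.35 without scaling and -0.41 with spike-in scaling, where the median gene moved by -0.75 and -0.80. The highest Alox5 levels were on ZnO 16 replicates 2 and 3, the arrays with the lowest 75th percentile signals, 151 and 190.1 against 374 and 381 on ZnO 16 replicates 1 and 4. The part of array brightness in the difference was not tested.

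Lta4h encodes leukotriene A4 hydrolase, which makes leukotriene B4, a strong attractant of neutrophils. Its processed signals were 8469 to 14135 at ZnO 4 and 3191 to 6916 at ZnO 16. The scaled levels were 4.62, 4.76, 4.88 and 4.75 at ZnO 4 and 4.21, 4.40, 4.27 and 4.08 at ZnO 16. All ZnO 16 arrays were below all ZnO 4 arrays, with the nearest pair, ZnO 4 replicate 1 and ZnO 16 replicate 2, still apart. The means were 4.75 ± 0.11 (SD, n = 4) and 4.24 ± 0.13 (SD, n = 4). The fitted difference was -0.51 (SE 0.12, 95% interval -0.77 to -0.25, adjusted p = 0.00617), which is 1.42-fold lower at ZnO 16.

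Lta4h was printed 10 times on each array, so the fall could be read spot by spot. One spot was flagged as an outlier on all 4 ZnO 4 arrays, and the other 9 gave a value at both doses. All 9 were lower at ZnO 16, by differences of -0.34 to -0.62, and in 8 of the 9 the doses did not overlap. The spot with the smallest fall, -0.34, was among those 8 but was flagged on ZnO 16 replicates 3 and 4. Its ZnO 16 value therefore rests on replicates 1 and 2. The spot flagged on all 4 ZnO 4 arrays was flagged on no ZnO 16 array, so its exclusion went with the dose. With flagged spots kept, the Lta4h difference shrank to -0.39 (adjusted p = 0.0331). The spots share a sequence and a sample, so they are repeated readings and not replicates of the dose. The SD among spots within an array was 0.04 to 0.12 except on ZnO 4 replicate 4, where it was 0.39 and the spots ran from 3.88 to 5.17. On that array the mean of the spots was 4.75 and their median 4.84, and the spot at 3.88 gave the 1 overlap. Without this array the Lta4h difference was -0.51, and over the omission of each of the 8 arrays in turn it ran from -0.56 to -0.46 with adjusted p between 0.00552 and 0.0220.

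**Figure D2:**
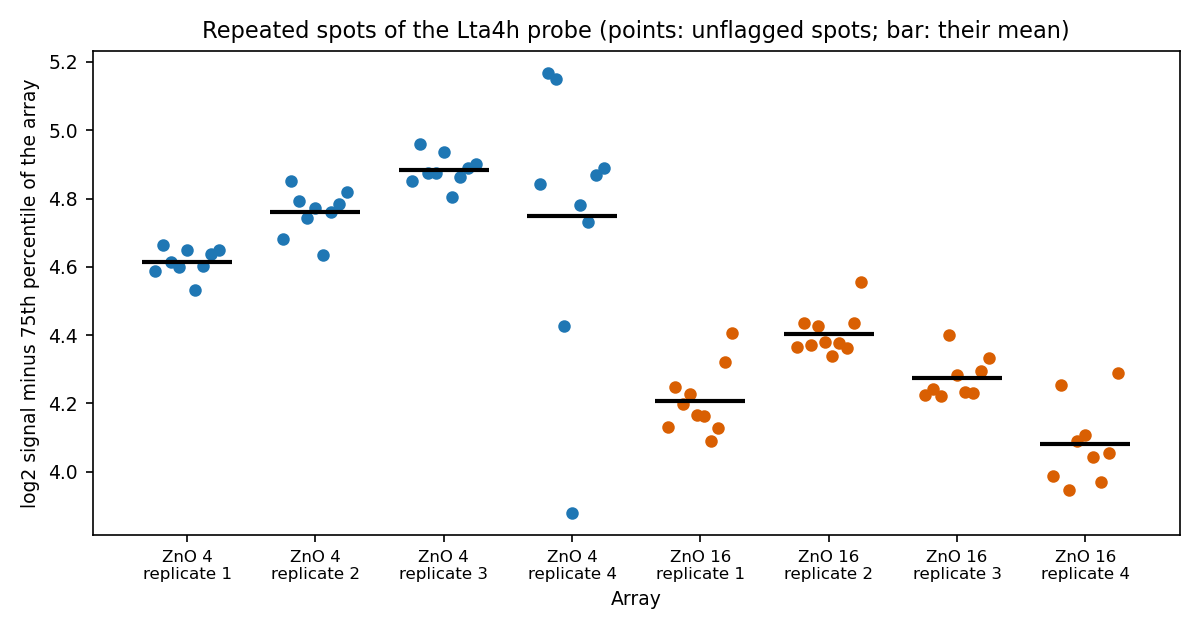
Level of the repeated Lta4h spots (log2 processed signal minus the array's 75th percentile) on each of the 8 arrays, with points for spots not flagged as outliers and bars for their mean. Spots cluster within 0.04 to 0.12 (SD) except on ZnO 4 replicate 4 (0.39), and the ZnO 16 means of 4.08 to 4.40 lie below the ZnO 4 means of 4.62 to 4.88.

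Lta4h was lower at ZnO 16 under every scaling and background setting run, with values from -0.34 with median scaling, where it no longer passed (adjusted p = 0.0904), to -1.32 with spike-in scaling. Alox5 lost its call with normexp background correction, where the difference was 0.22 (adjusted p = 0.248). Subtracting the median gene of each setting takes out most of what scaling changes by construction, and left Lta4h at -0.51 to -0.46 and Alox5 at 0.40 to 0.45 under the scalings. With normexp the same subtraction left Lta4h at -0.78 and Alox5 at 0.06.

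**Figure D3:**
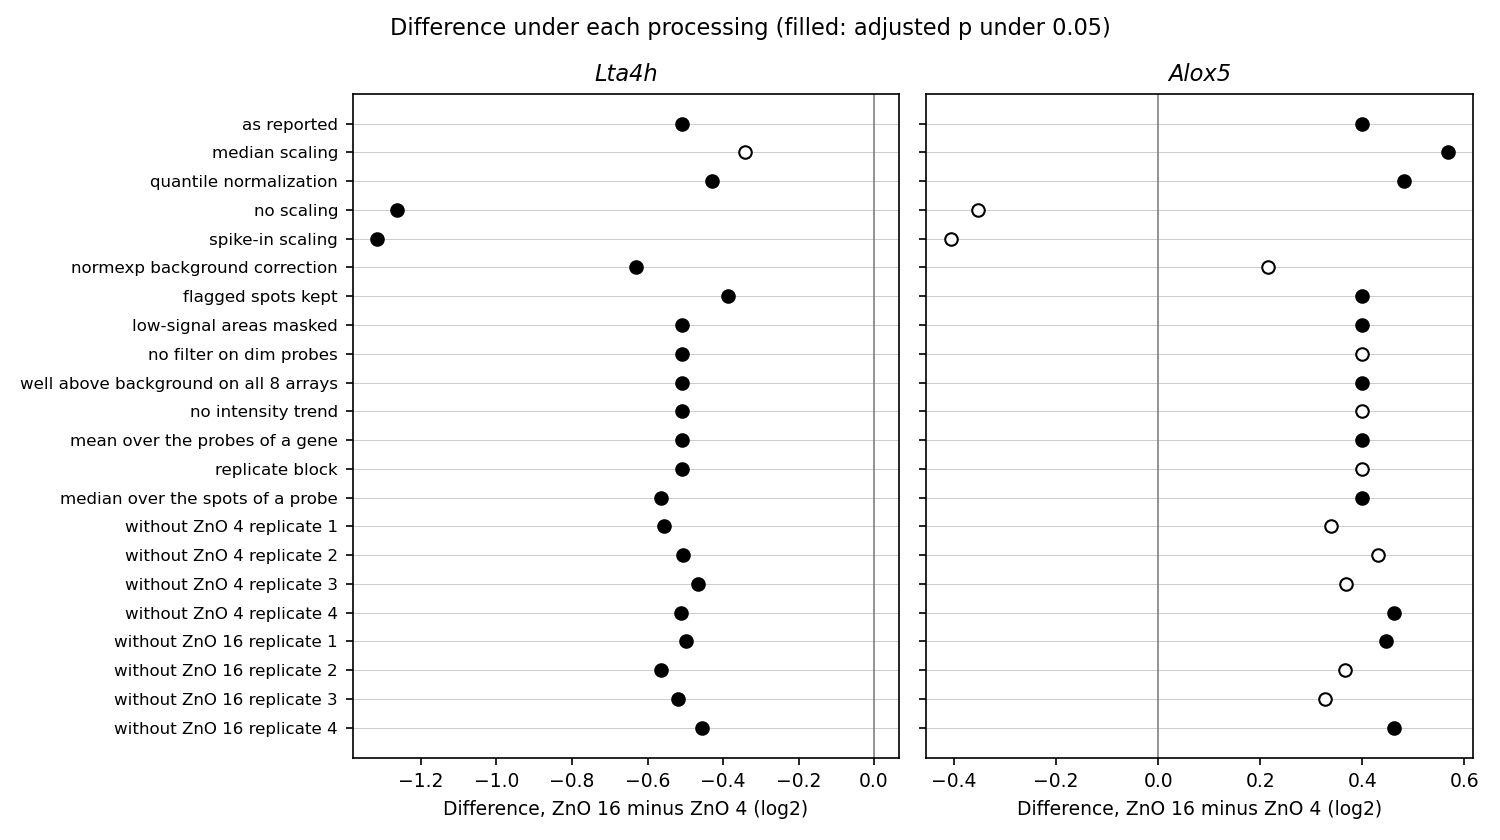
Difference between the doses (ZnO 16 minus ZnO 4, log2) for Lta4h and Alox5 as reported and under each other processing setting or omitted array, with filled points for an adjusted p under 0.05. Lta4h stays below 0 throughout, at -1.32 to -0.34, whereas Alox5 crosses to -0.35 and -0.41 without scaling and with spike-in scaling.

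The other leukotriene genes were dim. Alox5ap, whose product presents arachidonic acid to 5-lipoxygenase, had levels of -4.16, -4.16, -4.83 and -2.74 at ZnO 4 and -4.35, -4.63, -3.34 and -3.18 at ZnO 16. It was well above background on 2 of 4 ZnO 4 arrays and 3 of 4 ZnO 16 arrays, so it entered the test through ZnO 16 alone. All ZnO 16 values lay inside the range of the ZnO 4 values, and the SD was larger than that of 97.0% of genes at ZnO 4 (0.88) and 92.0% at ZnO 16 (0.72). The fitted difference of 0.10 had an interval of -0.97 to 1.17 (SE 0.48, adjusted p = 0.887). Ltc4s, whose enzyme joins leukotriene A4 to glutathione to start the cysteinyl leukotrienes, carried the flag on no array, with signals of 4.74 to 11.03 at ZnO 4 and 2.71 to 4.25 at ZnO 16. Of these, 2 ZnO 4 arrays exceeded the 95th percentile of their negative controls and no ZnO 16 array did.

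Nos2 was near background at both doses. One of its probes had signals of 4.97 to 12.5 at ZnO 4 and 4.21 to 8.70 at ZnO 16 and carried the flag on no array. The other had signals of 10.6 to 23.9 and 6.33 to 20.4 and was well above background on replicate 1 of each dose only. Both probes exceeded the 95th percentile of the negative controls on 3 or 4 arrays of each dose, but with 1 array per dose well above background at most, no comparison between the doses was made.

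Arg1 was well above background on all 8 arrays, with processed signals of 254 to 516 at ZnO 4 and 106 to 638 at ZnO 16. Its levels were -0.05, -0.30, 0.02 and 0.27 at ZnO 4 and -0.17, -0.51, -0.37 and 0.74 at ZnO 16. The highest and the lowest array of all were both from ZnO 16, replicates 4 and 2. The means were -0.01 ± 0.23 (SD, n = 4) and -0.08 ± 0.56 (SD, n = 4), and the ZnO 16 SD was larger than that of 84.5% of genes. The fitted difference was -0.06 (SE 0.26, 95% interval -0.63 to 0.50, adjusted p = 0.864). A single array moved this value: without ZnO 16 replicate 4 it was -0.33 (adjusted p = 0.134), and without ZnO 16 replicate 2 it was 0.083.

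The wider eicosanoid pathway was described with a list of 57 further genes, of which 55 were on the array, 30 were tested and 20 carried the flag on no array. Of the 30, 9 (30%) were higher, 4 (13.3%) lower and 17 not called, with a median of 0.08, beside 19.8% higher, 21.9% lower and a median of 0.00 over all genes. By role, the phospholipase group had 4 of 7 tested genes higher. The 7 include Mgll (higher) and Plaa (not called), which are not phospholipases themselves. The cyclooxygenase branch had 2 of 3 higher, the lipoxygenase branch 2 of 5 and transport 1 of 2. Breakdown enzymes had 2 of 8 lower and receptors 2 of 5 lower. Of these lower genes, 1 in each group (Akr1b10 and Ptgir) had entered the test only through ZnO 4, where it was brighter. Among the genes not called, the breakdown gene Ptgr2 and the receptor gene Ptgdr also entered only through ZnO 4. The receptor gene Ptgdr2 entered only through ZnO 16. All these counts are of a list and were not compared with other lists.

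Among the phospholipases, Pla2g6, a calcium-independent form, rose by 0.78 (SE 0.17, adjusted p = 0.00518), from -0.42, -0.24, -0.33 and 0.05 at ZnO 4 to 0.31, 0.69, 0.89 and 0.29 at ZnO 16. Pla2g15, the lysosomal form, rose by 0.75 (SE 0.17, adjusted p = 0.00664), from 3.28 to 3.58 over the ZnO 4 arrays to 3.83 to 4.52 over the ZnO 16 arrays. Mgll, which splits monoacylglycerols, rose by 0.60 (SE 0.17, adjusted p = 0.0164), but without ZnO 4 replicate 1 its adjusted p was 0.0514. The doses did not overlap for any of these 3 genes. Ptges2, a second prostaglandin E synthase, had levels of -0.98 to -0.40 at ZnO 4 and -0.35 to 0.65 at ZnO 16, a difference of 0.95 (SE 0.24, adjusted p = 0.00992). Its 2 highest arrays were again ZnO 16 replicates 2 and 3, at 0.65 and 0.58. Mgst3, a glutathione transferase able to make leukotriene C4, differed by 0.63 (SE 0.16, adjusted p = 0.00990), and the leukotriene C4 exporter Abcc1 by 0.80 (SE 0.17, adjusted p = 0.00392). Mgst2 and Mgst1, also on the list, were not called. Mgst2 went the other way, at -0.33 (adjusted p = 0.0522), with doses that did not overlap, and Mgst1 differed by 0.17 (adjusted p = 0.346). Abcc1 lost its call with normexp background correction, at 0.32 (adjusted p = 0.161). The remaining higher genes of these branches, named after their values were seen, were the secreted phospholipase gene Pla2g2d at 0.58 (adjusted p = 0.0112), the leukotriene D4 dipeptidase gene Dpep2 at 0.57 (adjusted p = 0.0411) and the thromboxane synthase gene Tbxas1 at 0.40 (adjusted p = 0.0375). Without scaling or with spike-in scaling, none of the first 6 called genes kept its call, and all but Ptges2 fell below 0 under at least spike-in scaling. ZnO 16 replicates 2 and 3 were the 2 highest arrays for every called gene in this paragraph except Abcc1. The part of array brightness in these differences was not tested.

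Ptgir, the prostacyclin receptor, had its levels lower at ZnO 16, from -2.15, -1.97, -2.27 and -2.06 at ZnO 4 to -3.78, -3.91, -2.75 and -4.60 at ZnO 16. It was well above background on 4 and then 2 arrays, and the difference was -1.65 (SE 0.34, adjusted p = 0.00364), or -0.55 with normexp correction (adjusted p = 0.0675). Akr1b10, a reductase, was also well above background on 4 and then 2 arrays and differed by -0.88 (SE 0.20, adjusted p = 0.00660), or -0.05 with normexp correction (adjusted p = 0.870). A second Akr1b10 probe gave -1.67 and was well above background on 4 and then 1 array. Both genes entered the test through ZnO 4 alone, and their ZnO 16 values lie near background, so the sizes are uncertain. The prostaglandin E2 receptor gene Ptger2, at -0.58 (SE 0.18, adjusted p = 0.0285), and the hydroxylase gene Cyp4f6, at -0.55 (SE 0.19, adjusted p = 0.0382), had overlapping doses. Ptger2 missed the threshold without any one of ZnO 4 replicates 2, 3 or 4 or ZnO 16 replicates 1, 3 or 4 (-0.60 to -0.49, adjusted p up to 0.0875). Cyp4f6 missed it without any one of ZnO 4 replicates 1 or 2 or ZnO 16 replicates 1, 3 or 4 (-0.56 to -0.41, adjusted p up to 0.106). Neither passed with median scaling.

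The arginine and nitric oxide list held 34 further genes, with 33 on the array and 26 tested. Of these, 7 (26.9%) were higher, 1 (3.85%) was lower and 18 were not called, with a median of 0.07. Over all genes 19.8% were higher and 21.9% lower, so the list had 30.8% called beside a background of 41.7%. The other nitric oxide synthase and arginase genes, Nos1, Nos3 and Arg2, carried the flag on no array, and neither did the guanylate cyclase subunit genes Gucy1a1 and Gucy1b1, whose enzyme senses nitric oxide.

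Slc3a2, the heavy chain of amino acid transporters that carry arginine among others, had levels of 1.79, 2.42, 2.49 and 2.35 at ZnO 4 and 3.72, 4.18, 4.15 and 4.14 at ZnO 16. The doses were far apart, with a difference of 1.79 (SE 0.17, adjusted p = 3.1e-05), which is 3.45-fold higher. It was the only gene called of the 3 tested for arginine transport. Slc7a2 differed by 0.49 (adjusted p = 0.181) and Slc7a7 by -0.19 (adjusted p = 0.506), and Slc7a1 had no probe. Ornithine and polyamine synthesis had 3 of 10 tested genes higher, 1 lower and 6 not called, with a median of 0.00. Srm, spermidine synthase, rose by 1.30 (SE 0.23, adjusted p = 0.00154), and its 4 probes gave 1.18 to 1.46. Agmat, which makes putrescine from agmatine, rose by 0.70 (SE 0.19, adjusted p = 0.0136), from -3.06 to -2.62 over the ZnO 4 arrays to -2.27 to -1.79 over the ZnO 16 arrays. Odc1, ornithine decarboxylase, differed by 0.46 (SE 0.15, adjusted p = 0.0363), and missed the threshold without any one of ZnO 4 replicates 1, 2 or 3 or ZnO 16 replicates 1, 3 or 4 (0.33 to 0.50, adjusted p up to 0.0982), although its second probe gave 0.81.

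On the synthase side, 3 genes were higher. Spr, which makes the synthase cofactor tetrahydrobiopterin, rose by 0.98 (SE 0.18, adjusted p = 0.00184), with 0.55 from its second probe. Nosip, a nitric oxide synthase interacting protein, rose by 0.81 (SE 0.13, adjusted p = 0.000710). Gch1, which starts tetrahydrobiopterin synthesis, completed the 3 at 0.39 (adjusted p = 0.0408), named after its value was seen. Sat1, which acetylates polyamines for breakdown or export, was the lower gene, with levels of 1.45, 1.13, 1.34 and 1.11 at ZnO 4 and 0.82, 0.47, 0.49 and 0.75 at ZnO 16. Its difference was -0.62 (SE 0.14, adjusted p = 0.00484), or -0.45 with median scaling (adjusted p = 0.121). Of the 7 higher genes, only Slc3a2 was still called higher without scaling or with spike-in scaling. ZnO 16 replicates 2 and 3 were the 2 highest arrays for Slc3a2, Srm, Agmat and Spr, but not for Odc1, Nosip and Gch1. On these arrays Srm was at 4.81 and 4.93, against 4.07 and 3.89 on ZnO 16 replicates 1 and 4. Spr was at 1.75 and 1.79, against 1.12 and 1.19. The part of array brightness was not tested.

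**Figure D4:**
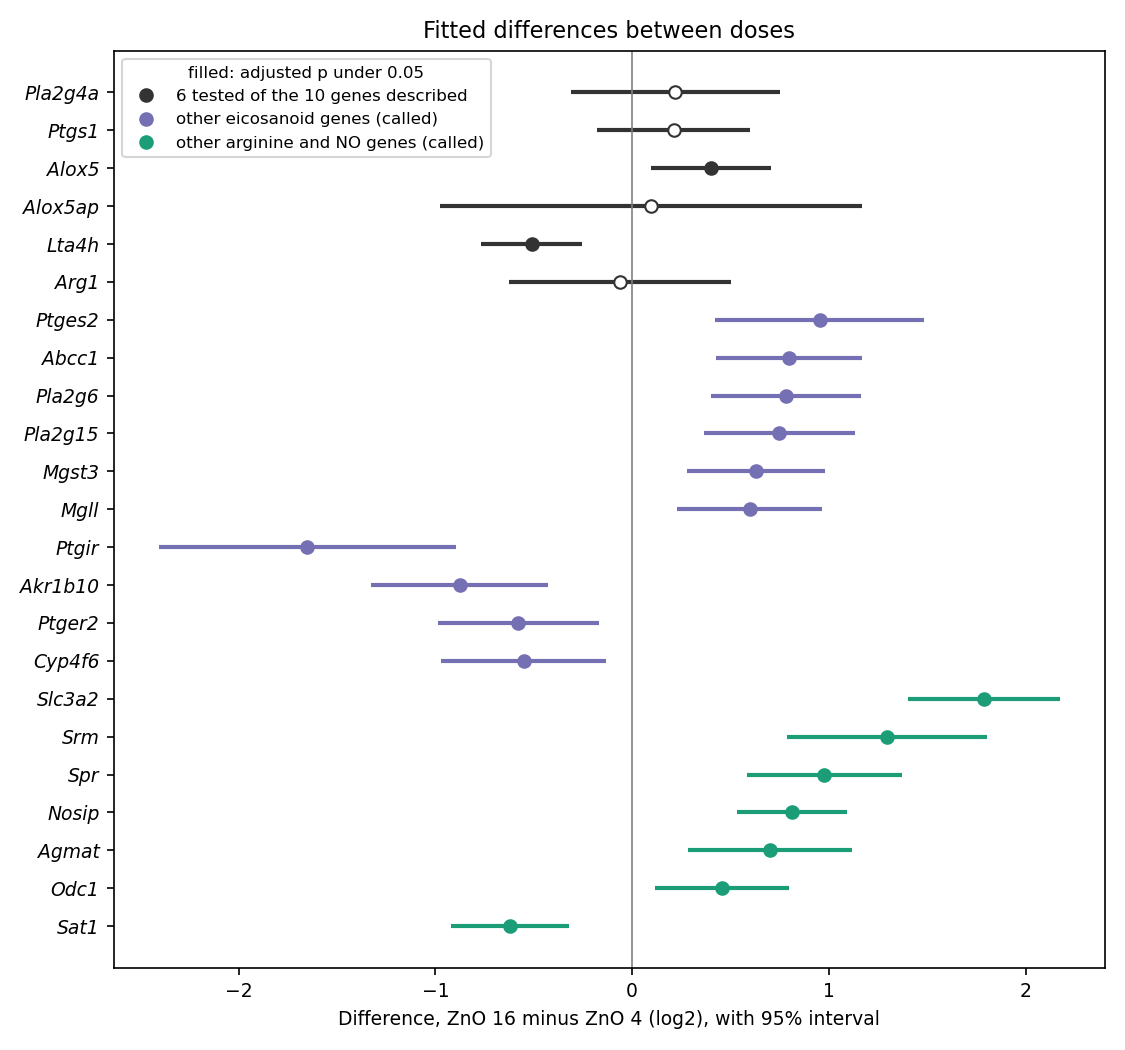
Fitted difference between the doses (ZnO 16 minus ZnO 4, log2) with its 95% interval for the 6 tested members and for the named called genes of both pathway lists, with filled points for an adjusted p under 0.05. The intervals of Pla2g4a, Ptgs1, Alox5ap and Arg1 cross 0, and the differences run from -1.65 for Ptgir to 1.79 for Slc3a2.

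The genes whose values over the 8 arrays were nearest to those of Alox5, by the root mean square distance of log2 values centred on their mean among 7914 genes compared, were Idh2 (0.040), Tbxas1 (0.053), Gorasp1 (0.054), Rogdi (0.061) and Pcgf1 (0.064). Tbxas1 is itself on the eicosanoid list, and a second probe of it gave 0.82. For Lta4h the nearest were Tbp (0.070), Mrc2 (0.078), Tbrg1 (0.078), Tifa (0.079) and Ffar4 (0.082), which differed between the doses by -0.58 to -0.41. Both sets are a description of these 8 arrays, which share slides within a dose.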

How the data were processed

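The authors deposited 1-colour scanner files, and the submitters' processing notes name Agilent Feature Extraction 11.0.1.1. Per the file headers, the processed signal is a linear intensity after subtraction of background and detrending of each array, with no scaling between arrays. The other deposited columns used were 0 or 1 flags for background, saturation and outlying spots. No spot of a member was saturated. Spots flagged as outliers were left out, spots of a probe averaged, and log2 values taken after subtracting each array's 75th percentile. A probe was kept if well above background on at least 3 of 4 arrays of a dose, and the brightest probe stood for a gene. Accessions were named through RefSeq's table of assembly GRCr8, used for names and promoter sequence only, which gave a symbol to 21109 of 45598 probes (46.3%). limma 3.58.1 (R 4.3.3; lmFit, eBayes with an intensity trend, two-sided) tested 13460 genes and unnamed transcripts, with Benjamini-Hochberg adjustment over all of them and a threshold of 0.05. The fit was tested on simulated data of 13312 genes, with 50 genes changed at each size. It recovered 10% of changes of 0.5 (log2), 56% of changes of 1 and 86% of changes of 2, with 6 false calls. Far fewer genes were changed there than were called here, so these shares need not hold for these data. Number of arrays limits the precision, and p-values measure the spread among these arrays, whose separate cultures are not described.

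Members and lists were chosen with earlier results of these data known. From each list the called genes were named by size, at most 6 higher and 6 lower, and the 5 genes nearest each called member. The alternatives changed the scaling, background correction, flags, filter, low-signal areas, trend, probe rule, replicate block and the arrays included; taking the median over spots was added after seeing the data.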

Additional observations from a re-analysis of the deposited data

Results flagged for a closer look

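Among 58 sets of 4 arrays examined for the tested members and named genes, a value of Slc3a2 stood apart from the others of its dose. On ZnO 16 replicate 1 its level was 3.72, against 4.14 to 4.18 on the other 3 ZnO 16 arrays, and the gap was 0.910 of the whole range of the 4 arrays by Dixon's measure, past its 95% limit. About 1 in 20 such sets is marked by chance. Without that array the Slc3a2 call held, as it did without each other array, with differences of 1.63 to 1.90.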

How the results depend on the processing

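The direction of many results rests on scaling the arrays. Without scaling 229 genes were higher and 4417 lower, and with spike-in scaling 224 and 5084, with medians of -0.75 and -0.80. Median scaling gave 3405 higher and 1980 lower and normexp 2779 and 1998. No member was called higher by limma without scaling, with spike-in scaling or with normexp (0 also at an unadjusted p under 0.05), nor with no filter on dim probes, with no intensity trend or with the replicate block (0 each, 1 at an unadjusted p under 0.05), and none was called lower with median scaling (0, and 1 at an unadjusted p under 0.05). Alox5 was -0.35 without scaling and -0.41 with spike-in scaling, 0.22 with normexp (adjusted p = 0.248), and 0.40 with no filter (0.108), no trend (0.0620) and the block (0.0537). Lta4h was -0.34 with median scaling. Without scaling and with spike-in scaling, Ptgs1 was -0.54 and -0.59, Alox5ap -0.66 and -0.71, and Pla2g4a -0.53 and -0.59. Arg1 was 0.11 with median scaling and 0.19 with normexp. Counts of the lists here include the members (10 eicosanoid genes higher and 5 lower, and 7 arginine genes higher and 1 lower, with the settings of the report). Eicosanoid genes called higher numbered 0 and 0 without scaling and with spike-in scaling (0 also at an unadjusted p under 0.05), and those called lower 2 with median scaling, 9 without scaling, 12 with spike-in scaling and 3 with no filter. Arginine genes called higher numbered 1 without scaling, 1 with spike-in scaling and 4 with no filter, and those lower 0 with median scaling (0 at an unadjusted p under 0.05), 2 without scaling, 8 with spike-in scaling, 3 with normexp and 2 with the mean over probes. Without scaling and with spike-in scaling, Pla2g15 was -0.0048 and -0.056, Mgst3 -0.12 and -0.18, Mgll -0.16 and -0.21, Agmat -0.053 and -0.10, and Odc1 -0.30 and -0.35, and with spike-in scaling Abcc1 was -0.0063 and Pla2g6 -0.024. Beyond the scaling, the cause was not tested. Leaving out each array gave 1941 to 2758 genes higher and 2416 to 2818 lower, 0 to 1 member higher and 1 lower, 6 to 11 eicosanoid genes higher and 3 to 6 lower, and 5 to 8 arginine genes higher and 1 to 2 lower. It gave Ptgs1 0.084 to 0.35, Alox5 0.33 to 0.46, Alox5ap -0.19 to 0.51, Lta4h -0.56 to -0.46, Pla2g4a 0.054 to 0.35 and Arg1 -0.33 to 0.083. Replicate numbers paired the arrays in part at most (same-number correlations -0.22 to 0.40, 2 of 4 pairs over 0.1, and 4 of 8 arrays closest to their own number). The correlations were 0.25 and 0.40 for replicates 1 and 2, and -0.22 and -0.03 for replicates 3 and 4. With the replicate block 2591 genes were higher and 2881 lower, and Lta4h kept its call (adjusted p = 0.0121). Dim signals limit Ptgs2, Ptges, Ltc4s, Nos2 and Alox5ap.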
